A study of Mus musculus with 10 samples.

Results

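Krt7, Krt8, Krt18 and Krt19, the keratins of simple (single-layered) epithelia, were followed through RNA sequencing of cell populations sorted from the mouse mammary gland. These 4 genes were chosen by their symbols among the 24000 rows of the deposited tables, and all 4 were present in each of the 6 tables. The series compared female mice that were wild type (WT) or knockout (KO) for Bptf, a subunit of the NURF chromatin remodelling complex. All mice had received tamoxifen, 15 mg/kg body weight in total, before cells were isolated and sorted by flow cytometry. The 10 libraries form 5 groups of 2: luminal cells of WT and KO mice, myoepithelial (basal) cells of WT and KO mice, and KO cells called Bsecs, a name that the labels do not spell out. The sources used here give neither the Bptf allele, the Cre driver, the age of the mice nor any pooling of animals.

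Each group was represented by 1 value per gene, so no spread between replicates could be measured. The whole read counts behind these values were recovered, and intervals given here are 95% counting intervals, which treat each read as independent. The 5 distinct columns held 2036681 to 3840462 counts, and the ribosomal RNA precursor Rn45s took 9.76% to 32.2% of them, the most in Bsecs. Both basal columns carried opposite genotype headers in different tables. They are called the larger basal column (2359861 counts) and the smaller basal column (2036681 counts), and no genotype was read from either. The libraries titled KO luminal give wild-type mice as their source in another label, so that column is named here only by its title. Bptf itself was read in every column, at a normalised level of 558 to 750, with 736 in the KO luminal and 571 in the WT luminal column. A count over the whole gene cannot check a deletion of some exons.

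Keratins are intermediate filament proteins that assemble as pairs of a type II and a type I chain. Krt8 and Krt7 are type II, and Krt18 and Krt19 are type I. Krt8 and Krt18 are the usual first pair of simple epithelia, while Krt7 and Krt19 are added in many ducts and glands. Krt19 is unusual in having almost no tail domain. In the mammary gland all 4 are used as markers of luminal cells, and Krt5 and Krt14 as markers of basal cells.

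Krt8 and Krt18 are direct neighbours on chromosome 15, with no other protein-coding gene between them in the RefSeq annotation. Krt7 lies on the same chromosome between Krt80 and Krt87. Krt19 lies on chromosome 11 in the type I cluster, between Krt15 and Krt9. Promoter windows of 300 bases, from 250 before the start of the gene to 50 after it, were available for 3 of the 4 genes from RefSeq (GRCm38.p6), and are shown because the partner genes Krt8 and Krt18 sit side by side. Sequences run 5′ to 3′ on the strand of the gene. Capitals mark matches on either strand to any of 3 motifs. The first is the TATA box, TATAAA, which places transcription starts in many promoters. The second is the GC box, GGGCGG, bound by Sp1. The third is an AP-2 motif, GCCNNNGGC. The windows are chr15:101412153-101412452 (plus strand) for Krt7, chr15:102004293-102004592 (minus strand) for Krt8 and chr15:102027966-102028265 (plus strand) for Krt18.
Krt7: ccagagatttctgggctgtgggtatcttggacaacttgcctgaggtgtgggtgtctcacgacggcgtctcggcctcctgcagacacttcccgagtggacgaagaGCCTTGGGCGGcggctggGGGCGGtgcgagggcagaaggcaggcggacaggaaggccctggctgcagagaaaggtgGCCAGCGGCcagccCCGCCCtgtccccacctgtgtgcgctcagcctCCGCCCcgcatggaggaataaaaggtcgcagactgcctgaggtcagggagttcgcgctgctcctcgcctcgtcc
Krt8: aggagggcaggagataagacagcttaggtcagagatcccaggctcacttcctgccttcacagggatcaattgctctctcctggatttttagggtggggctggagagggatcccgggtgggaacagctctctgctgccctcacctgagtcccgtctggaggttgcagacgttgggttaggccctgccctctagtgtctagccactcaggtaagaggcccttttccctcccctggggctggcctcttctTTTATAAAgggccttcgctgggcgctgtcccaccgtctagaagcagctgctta
Krt18: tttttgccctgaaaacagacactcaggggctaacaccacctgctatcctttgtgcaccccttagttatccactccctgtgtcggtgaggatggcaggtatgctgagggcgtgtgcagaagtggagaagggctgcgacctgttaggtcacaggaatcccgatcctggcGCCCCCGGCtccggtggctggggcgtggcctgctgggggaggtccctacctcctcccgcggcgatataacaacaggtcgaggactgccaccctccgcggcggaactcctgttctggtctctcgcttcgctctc
The Krt7 window held 4 matches to GGGCGG and 2 to GCCNNNGGC. The Krt8 window held 2 matches to TATAAA, which overlap on opposite strands. These begin at positions -3 and -1 relative to the gene start, so they lie across the start and not upstream of it. The Krt18 window held 1 match to GCCNNNGGC. The AP-1 motif TGANTCA and the Grainyhead-like motif AACCNGTT, also searched on both strands, had no match in these windows. Of 32851 promoter windows of the same length, 13.6% held TATAAA, 35.7% GGGCGG, 16.6% GCCNNNGGC, 7.81% TGANTCA and 2.09% AACCNGTT. The partner genes Krt8 and Krt18 shared none of these matches.

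The type II keratin Krt8 had 5492 read counts in WT luminal cells, 5991 in KO luminal cells, 671 in Bsecs, 123 in the larger basal column and 350 in the smaller one. Its type I partner Krt18 had 19786, 23396, 2429, 277 and 387 counts in the same order. Both were high in the luminal columns, intermediate in Bsecs and lowest in the basal columns. On a common scale (normalised read counts, median-of-ratios factors over the 5 columns) the level of Krt18 was 17662 in WT luminal and 16915 in KO luminal cells, the 6th highest of all genes in either column. Its level was 2559 in Bsecs, 266 (236 to 300) in the larger and 514 (464 to 568) in the smaller basal column. The level of Krt8 was 4902, 4331, 707, 118 (98.3 to 141) and 465 (417 to 516) in that order. Counts of Krt8 are uncertain in part, since a processed pseudogene, Krt8-ps, matches 941 bases of its transcript at 98.6% identity. A second pseudogene, Gm5200, matches 1269 bases of the Krt18 transcript at 90.2%. Neither pseudogene has a row of its own in the tables. The Krt7 transcript has 80 short matches of 154 to 194 bases to transcripts of other genes, at 90% to 93.1% identity, and 59 of those genes have rows in the tables. Its few basal counts are uncertain in this respect too.

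The second type II keratin, Krt7, had 2300 counts in the WT luminal column, 4001 in KO luminal, 1222 in Bsecs, 6 in the larger basal column and 36 in the smaller one. Krt19, the other type I keratin, had 9219, 17107, 6121, 37 and 116 counts in that order. For both, Bsecs stood below the luminal columns, but nearer to them than for Krt8 and Krt18, and far above the basal ones. On the common scale the level of Krt19 was 8229 in WT luminal, 12368 in KO luminal, 6448 in Bsecs, 35.6 (25.1 to 49.0) in the larger and 154 (127 to 185) in the smaller basal column. Taking the WT luminal level of each gene as 100%, Bsecs held 78.4% for Krt19 and 62.7% for Krt7, against 14.5% for Krt18 and 14.4% for Krt8. The larger basal column held 0.281% for Krt7, 0.432% for Krt19, 1.51% for Krt18 and 2.41% for Krt8. In the smaller basal column the values were 2.33%, 1.87%, 2.91% and 9.48%. All 4 genes thus had the same 2 luminal columns at the top, then Bsecs, the smaller and the larger basal column. Krt7 and Krt19 were higher in the KO than in the WT luminal column, and Krt8 and Krt18 the reverse. For each gene, the counting interval of the fold between neighbours in this order left out 1, and whether replicates would keep the order cannot be told from 1 value a group. In bulk samples, fewer cells of a type and less RNA per cell cannot be told apart.

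**Figure D1:**
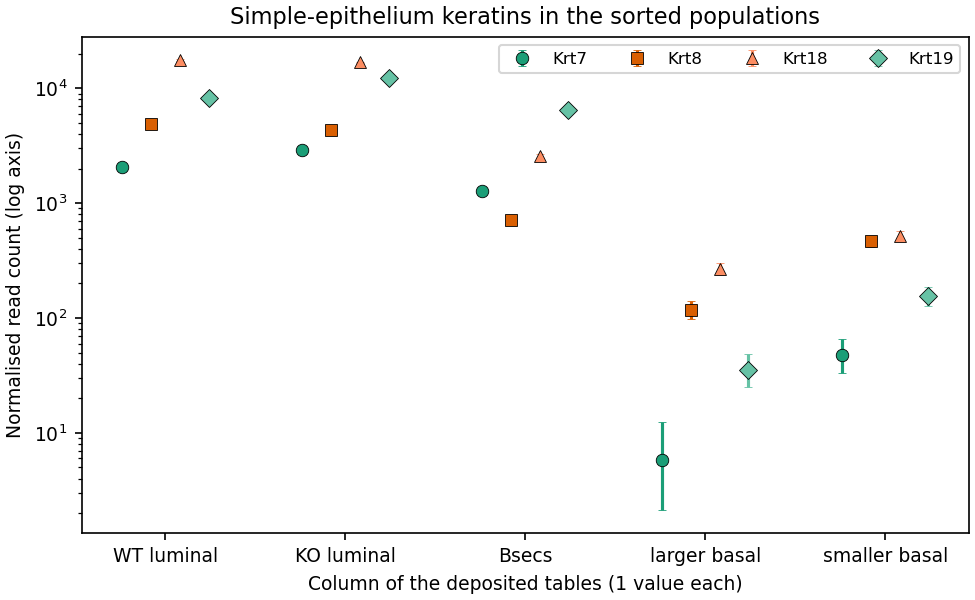
Normalised read count (log axis) of Krt7, Krt8, Krt18 and Krt19 in the 5 columns, 1 value each, with 95% Poisson counting intervals. In Bsecs, Krt19 (6448) and Krt7 (1287) lie nearer to their luminal levels than Krt18 (2559) and Krt8 (707) do to theirs. The luminal levels of Krt19 are 8229 in WT and 12368 in KO, and those of Krt7 are 2053 and 2893.

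The comparison of KO with WT luminal cells asks what Bptf loss changes in the luminal lineage, as far as the titles hold. On the scale of the authors' table, the KO luminal value was 1.48 times the WT value for Krt19 (1.44 to 1.52) and 1.39 times for Krt7 (1.32 to 1.46). It was 0.942 times for Krt18 (0.924 to 0.960) and 0.869 times for Krt8 (0.838 to 0.902). None of the 4 passed the test (adjusted p = 1 for each), by Benjamini-Hochberg adjustment of the authors' deposited DESeq p-values over all genes, at a threshold of 0.05. Of all 14736 genes tested, 0.0882% passed, and 3.74% had an unadjusted p under 0.05. The unadjusted p of the members lay between 0.519 and 0.935. An edgeR exact test at a dispersion of 0.16, assumed in place of replicates, also called 0 members, and 1.53% of all genes. Of the genes whose mean value reached 50, 25.4% had a higher log2 fold than Krt19 and 28.9% a higher one than Krt7. The basal keratins Krt14 and Krt17 also had more counts in the KO luminal column, 298 against 54 and 474 against 87, and neither passed the test. The summed level of 14 basal markers was 2840 in KO and 1945 in WT luminal cells. Of the WT sum, Itga6 made up 881, Mme 412 and Itgb4 301. The markers did not all move the same way. Mme was lower in KO luminal cells, at a level of 63.6, as were Tagln (62.2 against 78.6) and Oxtr (0 against 1.79). The others of the list were higher there. The list's median log2 fold of values plus 1 was 1.17, beside 0.10 for all genes tested. The part of basal cells in the keratin values was not tested.

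Between the basal columns, the smaller one had the higher value for each of the 4 keratins. The ratio was 8.40 for Krt7 (3.51 to 24.4), 4.39 for Krt19 (3.01 to 6.54), 3.98 for Krt8 (3.23 to 4.93) and 1.96 for Krt18 (1.67 to 2.29). None passed adjustment (adjusted p = 1 for each by the authors' deposited DESeq values), where 0.0274% of all genes did. The unadjusted p was 0.0294 for Krt8 and 0.0755 to 0.259 for the others, and 3.09% of all genes had one under 0.05. By size alone, Krt7 and Krt19 were more than 4-fold higher, which 3.56% of genes at a mean value of 50 or more were. Krt7 was below that minimum, and its ratio rests on 36 counts against 6. The edgeR exact test at the assumed dispersion called 0 members (2.39% of all genes). The 14 luminal surface and junction markers did not stand higher in the smaller column as a sum, at a level of 5944 against 6121. Cdh1 (2596 against 2153), Epcam (2373 against 2671) and Cd24a (867 against 817) made up most of both sums. The list's median log2 fold of values plus 1 was -0.02, beside -0.29 for all genes tested. Of the 14 markers, Cldn4, a tight junction claudin, passed the test as lower in the smaller column, with 4 counts against 374. Luminal transcription factors, which this list leaves out, went both ways. Esr1 passed the test as higher in the smaller column, with 713 counts against 30 (adjusted p = 0.00230 by the authors' deposited DESeq values). Gata3 had a level of 530 against 217, while Elf5 and Foxa1 had 0 counts against 4 and 2. The summed level of 8 fibroblast markers was 461 in the smaller and 2521 in the larger column, and that of 14 basal markers 51663 and 30210. The part of these cells in the keratin values was not tested.

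Against the luminal columns, Bsecs had lower values of all 4 keratins, by the larger factors for Krt8 and Krt18. Krt18 was 6.62-fold lower in Bsecs than in WT luminal cells (6.34 to 6.91) and 6.42-fold lower than in KO luminal cells (6.16 to 6.70). Krt8 was 6.65-fold (6.14 to 7.22) and 5.95-fold (5.49 to 6.46) lower. For Krt7 the factors were 1.53 (1.43 to 1.64) and 2.18 (2.05 to 2.33), and for Krt19 they were 1.22 (1.185 to 1.26) and 1.86 (1.81 to 1.92). None passed the test in either comparison (adjusted p = 1 for each by the authors' deposited DESeq values), where 0.21% of genes passed against WT and 0.0405% against KO luminal cells. The unadjusted p-values were between 0.113 and 0.916, while 4.29% and 3.82% of genes had one under 0.05. Krt8 and Krt18 were more than 4-fold lower in both comparisons, as 9.59% and 10.1% of genes at a mean value of 50 or more were. The edgeR exact test with that dispersion called these 2 as lower in both (false discovery rate 0.0225 for each against WT, 0.0281 for Krt18 and 0.0370 for Krt8 against KO). That test called 13.8% and 11.1% of all genes. The comparisons share the Bsecs column.

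Against the basal columns, Bsecs had higher values of all 4 keratins, and here Krt7 and Krt19 stood out. Krt19 was 182-fold higher than in the larger (132 to 259) and 41.6-fold higher than in the smaller basal column (34.6 to 50.4). Krt7 was 224-fold (103 to 612) and 26.7-fold (19.2 to 38.4) higher. The folds of Krt18 were smaller, at 9.65 (8.51 to 10.96) and 4.94 (4.44 to 5.52), as were those of Krt8, at 6.001 (4.94 to 7.33) and 1.51 (1.32 to 1.72). In the comparison with the larger column 1 of 4 members rose, Krt7, with an adjusted p of 0.00570 by the authors' deposited DESeq values, where 0.227% of all genes were called higher. Krt19 had an adjusted p of 0.142 in that comparison, Krt18 0.926 and Krt8 1, and each of these 3 had an unadjusted p under 0.05, as 4.61% of all genes did. Against the smaller column 0 of 4 were called, with an adjusted p of 0.0932 for Krt7 and 0.323 for Krt19, where 0.38% of genes were called higher. The unadjusted p there was 0.000972 for Krt7 and 0.00644 for Krt19, and 4.91% of genes had one under 0.05. By size, all 4 were more than 4-fold higher than in the larger column and 3 of 4, without Krt8, than in the smaller. That held for 7.52% and 7.05% of genes at a mean value of 50 or more. The edgeR exact test at the assumed dispersion called all 4 against the larger column, with 8.51% of all genes, and Krt7 and Krt19 against the smaller, with 10.1%.

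**Figure D2:**
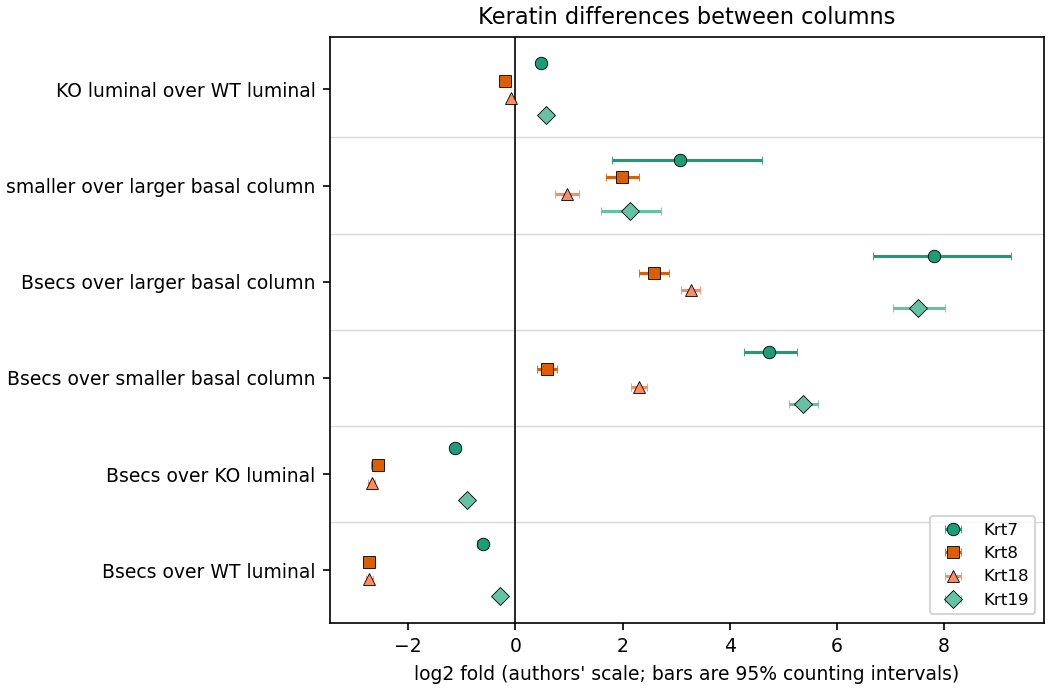
Log2 fold of Krt7, Krt8, Krt18 and Krt19 in the 6 comparisons, on the scale of the authors' tables, with 95% counting intervals. Krt7 lies near Krt19 and Krt8 near Krt18 in the comparisons of Bsecs with the luminal columns, at -0.61 and -0.29 against -2.73 for both others over WT luminal cells.

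Whether partners moved together was read from ratios of counts within a column, which do not depend on scaling. Krt8 had 0.278 counts per count of Krt18 in WT luminal cells (0.269 to 0.286), 0.256 in KO luminal cells (0.249 to 0.263) and 0.276 in Bsecs (0.253 to 0.301). In these 3 columns the ratio was nearly constant although both genes were more than 6-fold lower in Bsecs than in WT luminal cells. The Bsecs ratio was 0.995 times that of WT luminal cells, with an interval of 0.908 to 1.09. In the basal columns the ratio was 0.444 (0.356 to 0.551) in the larger and 0.904 (0.780 to 1.05) in the smaller. Both intervals lie above those of the other 3 columns. The highest ratio was 3.53 times the lowest (3.04 to 4.10). Without the smaller basal column that factor was 1.73.

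The ratio of Krt7 to Krt19 was 0.249 in WT luminal cells (0.238 to 0.261), 0.234 in KO luminal cells (0.226 to 0.242) and 0.200 in Bsecs (0.188 to 0.212). It was 0.162 in the larger (0.0559 to 0.388) and 0.310 in the smaller basal column (0.207 to 0.455). The Bsecs ratio was 0.8002 times that of WT luminal cells (0.741 to 0.864), and that interval left out 1. Intervals of the ratio for KO over WT luminal (0.885 to 0.993), Bsecs over KO luminal (0.795 to 0.916) and Bsecs over the smaller basal column (0.437 to 0.968) also left out 1. Across the columns the highest was 1.91 times the lowest (0.718 to 5.98). That interval is for columns picked as highest and lowest and rests on 6 counts of Krt7, so it does not show a constant ratio. The level of Krt19 itself ranged over 8.40 on the log2(level + 1) scale. Ratios across the pairs varied far more. Krt7 to Krt8 went from 0.0488 in the larger basal column (0.0176 to 0.109) to 1.82 in Bsecs (1.66 to 2.00), a factor of 37.3 (16.5 to 104). The factor was 30.3 for Krt8 to Krt19 (20.6 to 45.4), 23.2 for Krt7 to Krt18 (10.5 to 64.0) and 18.9 for Krt18 to Krt19 (13.3 to 27.4). Without the Bsecs column these 4 factors were 5.47 to 13.7.

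**Figure D3:**
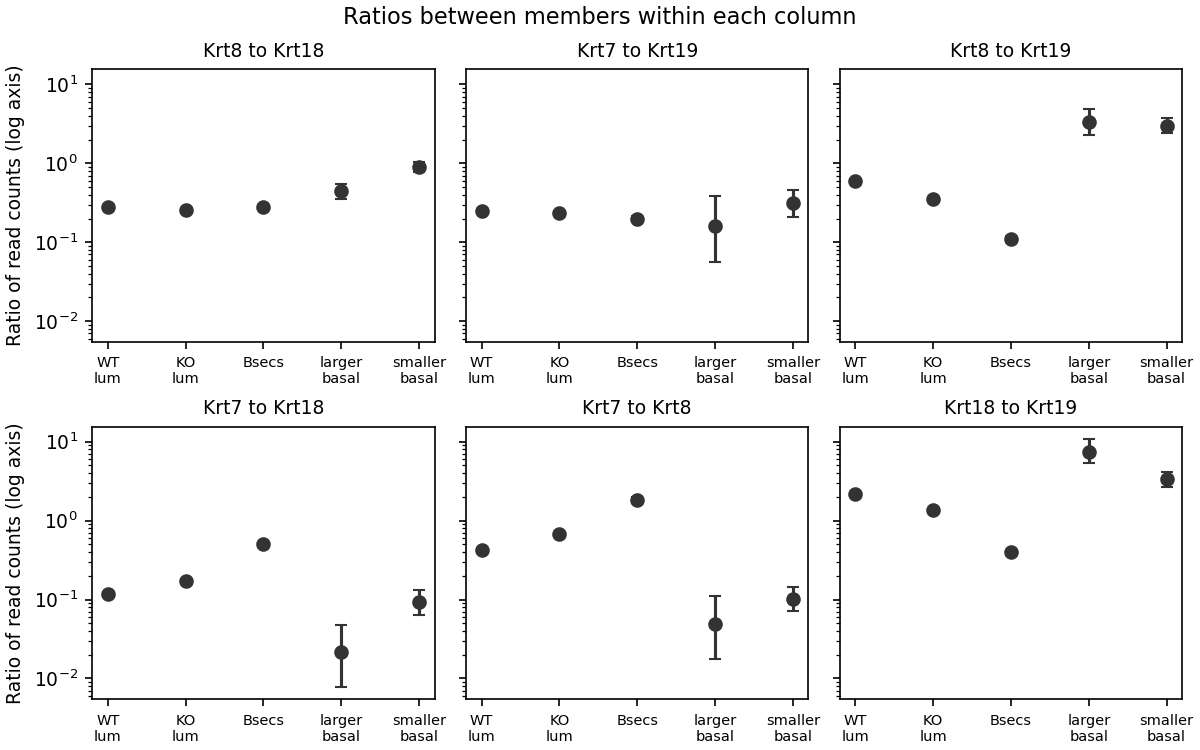
Ratio of read counts (log axis) for the 6 pairs of Krt7, Krt8, Krt18 and Krt19 in each of the 5 columns, with exact 95% counting intervals. Krt8 to Krt18 stays at 0.256 to 0.278 in the luminal columns and Bsecs, and Krt7 to Krt19 at 0.162 to 0.310 in all 5, while the other pairs spread over more than 10-fold.

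Levels of different genes were compared per kilobase of coding length. Of the summed level of the 4 keratins per coding kilobase, Krt18 made up 54.5% in WT luminal cells, Krt19 26.6%, Krt8 13.0% and Krt7 5.86%. In Bsecs the first place went to Krt19, with 60.8%, and Krt18 had 23.0%, Krt7 10.7% and Krt8 5.48%. Krt18 led again in the larger (64.8%) and the smaller (45.8%) basal column, with Krt8 second at 24.8% and 35.8%. The type I members together exceeded the type II members in every column, 4.29-fold in WT luminal cells, 4.66-fold in KO luminal cells, 5.18-fold in Bsecs, 2.83-fold in the larger basal column and 1.52-fold in the smaller one, per coding kilobase. These factors rest on the lengths used. Per kilobase of full transcript, a setting added after the data were seen, they were 5.83, 6.72, 8.69, 3.36 and 1.83. The annotated transcripts of the type II genes are the longer ones, with 4094 bases for Krt7 and 1958 for Krt8, against 1437 for Krt18 and 1576 for Krt19.

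The 4 genes made up most keratin reads in luminal cells. Their share of the counts of all 51 listed keratins was 96.1% in WT (95.9 to 96.3) and 94.9% in KO luminal cells (94.8 to 95.1), by exact binomial intervals. The share was 26.3% in Bsecs (25.9 to 26.8), 6.42% in the larger (5.86 to 7.03) and 5.86% in the smaller basal column (5.49 to 6.24). The rest in Bsecs came from keratins of basal and stratified epithelium. Of the other 47 keratins, 10 reached a level of 50 in some column: Krt4, Krt5, Krt6a, Krt14, Krt15, Krt16, Krt17, Krt23, Krt42 and Krt80. Krt14, the type I keratin of basal cells, had a level of 8944 in Bsecs, above the 6448 of Krt19, and one of 48.2 in WT luminal cells. The wound keratins Krt6a and Krt16 had levels of 4913 and 4831 in Bsecs, against 113 and 140 in WT luminal cells. Krt4, a type II keratin of mucosal epithelium, had a level of 622 in Bsecs, 716 in WT and 461 in KO luminal cells. It had 5 counts in the larger basal column and 0 in the smaller one.

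**Figure D4:**
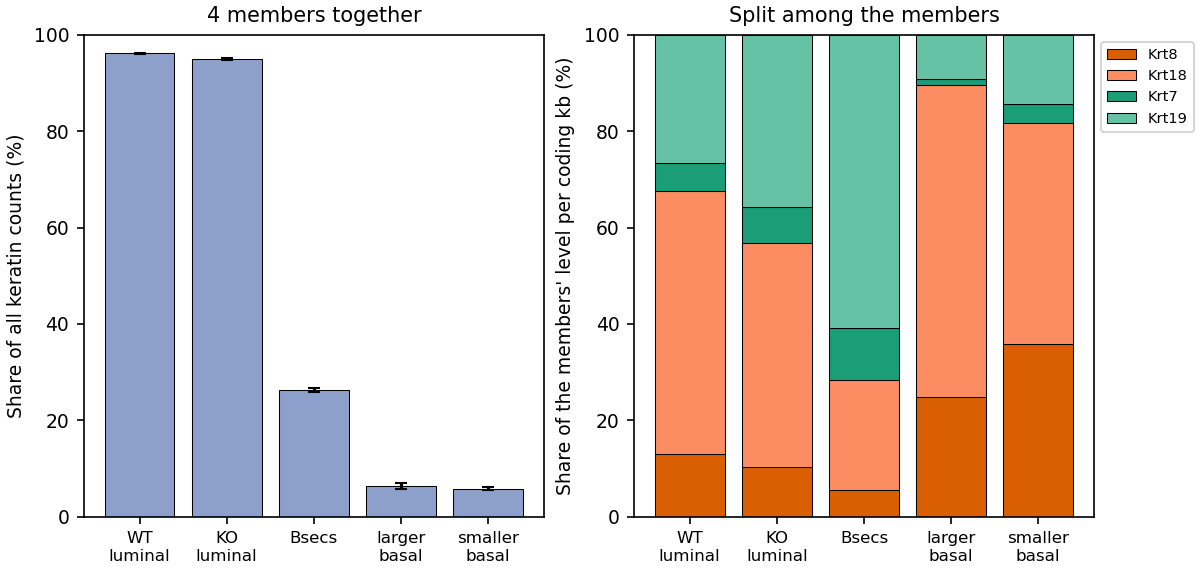
Left, share of all keratin read counts taken by Krt7, Krt8, Krt18 and Krt19 together in each column, with 95% binomial intervals. Right, split of their summed level per coding kilobase, in which Krt19 takes 60.8% in Bsecs and Krt18 takes 54.5% in WT luminal cells.

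To see which genes have the same profile, all 6465 genes with a mean level of at least 50 were compared by the root mean square difference of log2(level + 1), each gene centred on its mean over the 5 columns. Krt7 and Krt19 were each other's nearest gene, at a difference of 0.27. Mutual nearest genes are common, since 53.1% of the 6465 genes are in such a pair. Among the 399 genes whose range over the columns was at least that of Krt18, the median distance to the nearest gene was 0.40, and 19.0% had one within the distance between Krt7 and Krt19. Krt8 and Krt18 were each at rank 24 for the other, at a difference of 0.69. Across the pairs the ranks ran from 38 to 1765. These profiles share 5 columns and their scaling, and are given as a description.

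The 5 genes nearest to Krt7 by this measure, passing over predicted genes, were Krt19, Pdlim2 (a cytoskeletal PDZ and LIM protein), Edn1 (endothelin 1), Grb7 (an adaptor of receptor tyrosine kinases) and Sgsm1. For Krt19 they were Krt7 and the same other 4. These 4 had levels of 0 to 2.88 in the larger basal column and of 51.6 to 464 in Bsecs. Nearest to Krt8 were Spns2 (a sphingosine-1-phosphate transporter), Inhbb (an activin subunit), Hid1, Wnt5b (a Wnt ligand) and Cd99l2. Nearest to Krt18 were Sbsn (suprabasin), Rab25 (a small GTPase of epithelial vesicle traffic), Gpr146, Lgals3 (galectin-3) and Prom1 (a membrane protein of luminal cells). Lgals3 was the most abundant of these, at a level of 5423 in WT luminal cells, 4893 in KO luminal cells, 639 in Bsecs, 64.4 in the larger basal column and 77.0 in the smaller one. Prom1 had a level of 880 in WT luminal cells, 993 in KO luminal cells and 178 in Bsecs, with 14.4 and 15.9 in the basal columns.

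**Figure D5:**
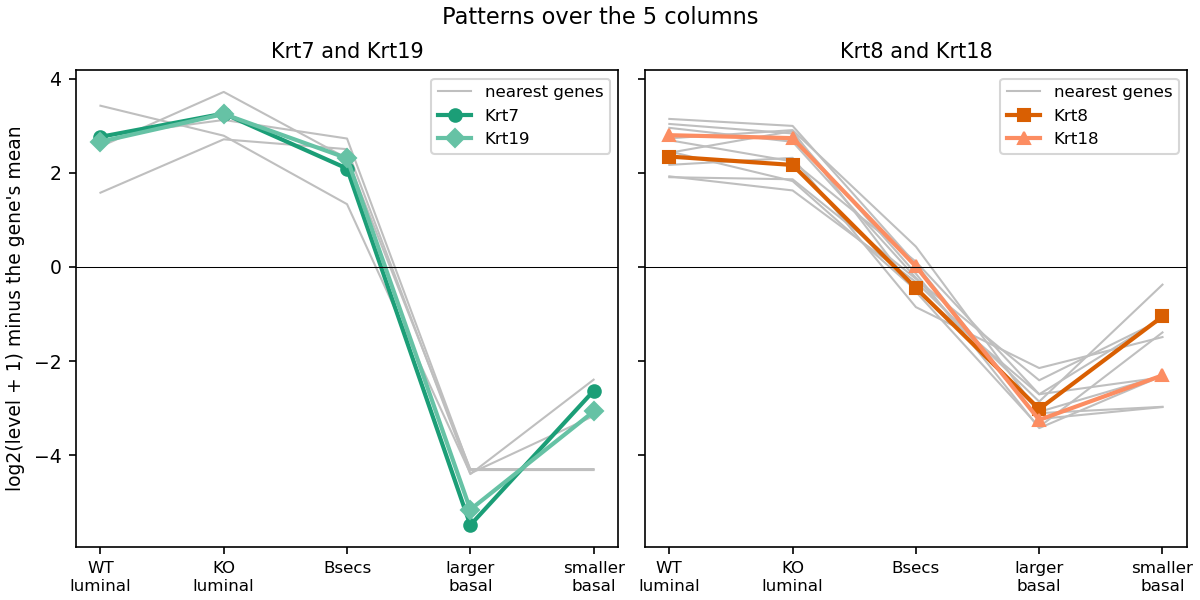
Log2(level + 1) minus the gene's mean over the 5 columns for Krt7 and Krt19 (left) and Krt8 and Krt18 (right), with their nearest named genes in grey. Krt7 and Krt19 stay above their mean in Bsecs, while Krt8 and Krt18 lie near theirs.

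Luminal markers other than keratins were spread on both sides of these values in Bsecs. Of 14 luminal surface and junction markers, all at a level of at least 50 in WT luminal cells, the median in Bsecs was 19.4% of the WT luminal level, with 5 below the value of Krt8 and of Krt18 and 9 below those of Krt7 and Krt19. Cldn4 was at 317%, Ly6d, a small surface protein, at 129% and the adhesion molecule Epcam at 87.3%. The receptor Kit had 0 counts in Bsecs and Wfdc18, a secreted whey acidic protein family member, was at 1.85%. Over the 6 comparisons together, 0.263% of the 87119 tests of all genes were called, 4.07% had an unadjusted p under 0.05, and the edgeR exact test called 7.86%. The luminal list had 3 higher calls and 1 lower among 83 tests, with 20 unadjusted p under 0.05 and 32 edgeR calls. The higher calls were Ly6d against both basal columns (2814 counts against 16 and 0) and Cldn7 against the smaller one (251 against 0), and the lower call was Cldn4 between the basal columns. Its median log2 fold of values plus 1 was 3.54 for Bsecs over the larger and 2.95 over the smaller basal column (3.63 and 2.56 with genes at 0 placed at a floor of 3 counts), where the medians of all genes tested were -0.21 and 0.10. Over KO and WT luminal cells the medians were -2.55 and -2.29, beside -0.21 and -0.09 for all genes.

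The other type II keratins had 4 higher calls among 81 tests, all of them in Bsecs, beside the 0.263% of all tests that were called. They had 12 unadjusted p under 0.05 (4.07% over all genes) and 16 edgeR calls (7.86%). Krt4 rose against the larger basal column 130-fold (55.3 to 401) and against the smaller at least 155-fold, with a floor of 3 counts for the column at 0. Krt6a rose against the smaller column, with 4664 counts against 3, and Krt5 against WT luminal cells, with 3139 against 1. The other type I keratins had 20 unadjusted p under 0.05, 16 edgeR calls and 2 higher calls among 73 tests. Both calls were of Krt15 in Bsecs, at 65.0-fold (45.6 to 95.8) over the smaller basal column and 450-fold (218 to 1119) over WT luminal cells. Krt15 had a level of 2694 in Bsecs, 92.5 in KO and 6.25 in WT luminal cells, and 45.2 and 41.2 in the larger and smaller basal column. Other intermediate filament genes had 4 unadjusted p under 0.05, 5 edgeR calls and 2 lower calls among 45 tests, both of Synm (synemin, a partner of vimentin and desmin in muscle), with 0 counts in Bsecs against 214 in the larger basal column and 171 in the smaller one.

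Genes that anchor keratin filaments to junctions had 14 unadjusted p under 0.05, 16 edgeR calls and 1 higher call among 88 tests (0.263% called, 4.07% and 7.86% over all genes), Dsg3 (a desmosomal cadherin of stratified epithelium), with 193 counts in Bsecs and 0 in the smaller basal column. Desmoplakin (Dsp), which ties keratins to desmosomes, had levels of 966 to 2087 in the 5 columns, the highest 2.16 times the lowest. That was the smallest such factor in the list. It was 97.6 for Pkp2 and 90.7 for Dsc2, both lowest in the smaller basal column. For Pkp4, which was highest in the larger basal column, it was 9.65. The 9 genes whose proteins bind or cleave simple keratins had 0 calls among 54 tests by the authors' deposited DESeq p-values, with 1 unadjusted p under 0.05 and 3 calls by the edgeR exact test. Neither share is above the 4.07% and 7.86% of all genes. The 18 epithelial transcription factors had 12 unadjusted p under 0.05, 16 edgeR calls and 4 higher calls among 107 tests: Foxa1, a luminal pioneer factor, in Bsecs over both basal columns (216 counts against 2 and 0), Ehf, an ETS factor of epithelia, in Bsecs over the larger one (135 against 0), and the oestrogen receptor Esr1 in the smaller over the larger basal column (713 against 30). The 14 basal markers had 31 unadjusted p under 0.05, 29 edgeR calls, 1 higher call (Krt5) and 10 lower ones among 84 tests, including Myh11, smooth muscle myosin, with 19 counts in Bsecs against 4223 in the larger basal column and 3463 in the smaller one. All of these calls use the adjusted p of the authors' deposited DESeq values.

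Markers of cells outside the epithelium had 0 calls by the authors' deposited DESeq p-values in any comparison. At an unadjusted p under 0.05 there were 11 of 48 tests for fibroblast, 3 of 35 for endothelial, 4 of 28 for pericyte, 0 of 18 for immune and 0 of 20 for adipocyte markers, and the edgeR exact test called 12, 7, 9, 0 and 1. Over all genes these shares were 4.07% and 7.86%, and the fibroblast, endothelial and pericyte counts are above both. Immune markers summed to levels of 0.962 to 32.5, with 3 to 7 of 8 markers at 0 counts, and Tyrobp, Fcer1g and Cd3e at 0 in all 5 columns. Endothelial markers summed to 9.48 in Bsecs, where 7 of 8 were at 0, and to 244 in the larger basal column, where all 8 were read. Pericyte markers summed to 32.7 to 265 and adipocyte markers to 20.2 to 94.3. Notch3 alone made up 159 of the pericyte sum of 162 in WT luminal cells and 248 of 265 in KO luminal cells. Of the adipocyte sums, Pparg made up 68.7 of 93.7 in WT luminal cells. Fabp4 made up 82.3 of 94.3 in the smaller basal column. Fibroblast markers summed to 492 in Bsecs, 817 in WT and 1006 in KO luminal cells, but the matrix proteoglycan Dcn alone made up 775 and 983 of the luminal sums. Without Dcn, the other 7 markers summed to 294 in Bsecs, 42.0 in WT luminal cells, 23.1 in KO luminal cells, and 1224 and 331 in the larger and smaller basal column. The list's median log2 fold of values plus 1 was 1.42 for Bsecs over WT and 3.40 over KO luminal cells (1.51 and 2.92 with genes at 0 placed at a floor of 3 counts), beside -0.09 and -0.21 for all genes. The part of these cells in the keratin values was not tested.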

How the data were processed

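Per the labels' protocols, RNA of sorted cells was extracted with TRIzol, amplified to cDNA with the Ovation RNA-seq system (V2) and made into libraries with the Ovation ultralow DR system. STAR, DESeq and the mm9 build were used, per the submitters' processing notes. Versions, read counter, annotation and strand setting are not stated there. The authors deposited 6 tables that give, per the file headers, a mean signal (normalised read counts) for either group, their ratio (fold change) and a p-value. No column of a single library was present (0 columns of other series), and samples were grouped by title.

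Within a column, every deposited signal divided by the same constant gave a whole number (100% of values within 0.01 count), so whole counts were recovered. A column may pool the libraries of its group or hold 1 of them, and all tests compare columns. Folds were recomputed from the signals in a stated direction, since 4 of the authors' deposited ratio columns run the other way. Calls use the authors' deposited p-values, which cover 13698 to 14986 genes a table, with Benjamini-Hochberg adjustment at 0.05. The plan had allowed for this unit. Intervals are exact binomial (folds, ratios, shares) or Poisson (levels) at 95%. They treat each read as independent and leave out the spread between replicates. Reads copied by PCR and carrying no molecular identifier are not independent molecules, so the intervals may be too narrow even for counting error. Column totals of 2036681 to 3840462 counts leave wide intervals for genes near 0.

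Common levels use median-of-ratios factors over 9789 genes read in all 5 columns. Profiles use log2(level + 1) of genes with a mean level of at least 50. Alternatives were 2 other scales, an edgeR 4.0.16 exact test with an assumed dispersion of 0.16, other minimum levels and pseudocounts, a correlation in place of the distance, and leaving out each column. The gene-wide steps were run on simulated counts with known changes and Poisson error only. That setting leaves out spread between replicates and amplification, so it cannot check interval width or false calls in the real columns. The members and the 13 gene lists (168 entries, all matched) were chosen with earlier results of these data known. Named genes were the 4 members, the 5 genes nearest in profile to each, up to 4 called genes of a list and comparison, and other keratins with a level of at least 50. Genes named outside this rule for their levels were chosen after their values were seen. They were Dsp, Pkp2, Pkp4, Dsc2, Epcam, Cdh1, Cd24a, Itga6, Itgb4, Tagln, Gata3, Elf5, Notch3, Pparg, Fabp4, Dcn, Wfdc18 and Kit, and markers at 0. Lengths and pseudogene matches come from GENCODE M21 transcripts, and promoter windows from RefSeq. Python 3.11.15, scipy 1.17.1 and R 4.3.3 were used.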

Additional observations from a re-analysis of the deposited data

How the results depend on the processing

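No paired analysis was possible because the columns carry no replicate numbers and hold 1 value per group. For the 4 keratins in the 6 comparisons, the median-of-ratios scale over 5 columns and the totals without Rn45s gave 48 values, of which 0 changed sign; the second scale shifted all log2 folds of a comparison by -0.08 to -0.36. The edgeR exact test at an assumed dispersion of 0.16 called 10 of the 24 differences, 9 more than the authors' p-values did: 4 members (Krt7 among them, called by both) for Bsecs over the larger basal column and 2 each for Bsecs over the smaller basal column, KO luminal and WT luminal cells. Over all genes it called 226 (KO over WT luminal), 349 (smaller over larger basal), 1275 and 1382 (Bsecs over the larger and smaller basal column), 1639 and 1974 (Bsecs over KO and WT luminal). Of all 87119 tests it called 7.86%, against 0.263% by the authors' p-values, so the gain in calls is not particular to the members. Restricting the adjustment to genes with a mean value of at least 10 gave 8 calls between the basal columns and 13 for Bsecs over KO luminal cells.

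Genes past 4-fold, in the same order, numbered 1145, 1311, 2110, 2068, 2489 and 2655 with a minimum mean of 10, and 1492, 1739, 2364, 2200, 2624 and 2747 with none. These alternatives test more genes at low counts.

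When each column was left out in turn, the factor between the highest and lowest ratio ran from 1.73 (without the smaller basal column) to 3.53 for Krt8 to Krt18, 1.54 to 1.91 for Krt7 to Krt19, 9.49 to 30.3 for Krt8 to Krt19, 5.41 to 23.2 for Krt7 to Krt18, 13.7 to 37.3 for Krt7 to Krt8 and 5.47 to 18.9 for Krt18 to Krt19. The lowest values came without the Bsecs column for 3 of the last 4 and without the larger basal column for Krt7 to Krt18. Krt19 ranked 1 to 4 for Krt7 and Krt7 ranked 1 to 4 for Krt19. Krt18 ranked 16 to 305 for Krt8, and Krt8 ranked 8 to 103 for Krt18, both lowest in likeness without the larger basal column. By Pearson correlation of log2 levels the ranks were 3 (Krt19 for Krt7), 5 (Krt7 for Krt19), 55 (Krt18 for Krt8) and 87 (Krt8 for Krt18). With a minimum mean level of 10 the ranks of the Krt8 and Krt18 pair were 49 and 52. The nearness of Krt8 and Krt18 among all genes thus depends on the measure and the columns, and the cause was not tested. Depth limits Krt7 most, with 6 and 36 counts in the basal columns.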
